A study of Mus musculus with 19 samples.

Results

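Box C/D small nucleolar RNAs (snoRNAs) were followed as fragments in the small RNA of mouse sperm. The members were the GENCODE snoRNA genes whose symbol begins with Snord, 98 of the 6114 genes of the reference, with 97 distinct symbols because Snord80 has 2 overlapping models. A read was counted for a member when it read in the sense direction with no more than 1 mismatch and matched no miRNA, rRNA or tRNA of the reference, and a read that matched several genes was divided equally among them. Sperm, treated with a buffer that lyses somatic cells, came from wild type male mice that were 8 weeks old at the start of 4 weeks of daily oral gavage with corn oil (control) or with dicyclohexyl phthalate (DCHP), a plasticizer. The labels name DCHP gavage as the treatment of every library, controls included, so exposure was assigned by the library titles. RNA of 15 to 50 nt was cut from a gel and sequenced in 4 PANDORA-seq libraries of control and 5 of DCHP sperm, and in 5 traditional libraries of control and 5 of DCHP sperm. PANDORA-seq adds 2 enzymes, AlkB, a demethylase that clears methylated bases that block cDNA synthesis, and T4 polynucleotide kinase, which repairs RNA ends for adapter ligation. The study calls its libraries biological replicates of mice and ran both methods on sperm RNA of the sires, but the labels tie no numbered PANDORA-seq library to a traditional one and do not say whether a library pools animals, so p-values measure the spread between these libraries.

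Box C/D snoRNAs guide 2′-O-methylation of ribosomal RNA and of small nuclear RNA, and a few of them are needed to cut the ribosomal RNA precursor instead. In mammals most are released from introns of host genes, and the mature ends are protected by core proteins, among them fibrillarin, that bind box C near the 5′ end and box D near the 3′ end. Mature snoRNAs are longer than the RNA that was cut from the gel, so what these libraries hold are pieces of them. Ripe sperm make little new ribosomal RNA, and sperm small RNA is known mainly for fragments of tRNA and rRNA.

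The fragments that the results turn on are shown within their genes, as the sense strand from 5′ to 3′ with the most-read fragment in capitals. Sequences are from GENCODE vM21 on GRCm38. Snord83b is shown because the same 33 bases led among its reads in both methods. Snord14c is shown with its PANDORA-seq fragment because it was the highest gene there, and Snord57 because its leading 5′ fragment was longer in PANDORA-seq. Snord95 and Snord42a show fragments that end 1 base after box D (ctga).
Snord83b, both methods, chr15:80078498-80078591, minus strand: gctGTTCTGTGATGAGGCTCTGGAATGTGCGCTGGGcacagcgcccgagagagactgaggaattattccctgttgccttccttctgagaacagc
Snord14c, PANDORA-seq, chr9:40803583-40803668, plus strand: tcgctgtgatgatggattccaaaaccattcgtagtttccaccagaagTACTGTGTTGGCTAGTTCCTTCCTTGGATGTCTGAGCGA
Snord57, PANDORA-seq, chr2:130278016-130278087, plus strand: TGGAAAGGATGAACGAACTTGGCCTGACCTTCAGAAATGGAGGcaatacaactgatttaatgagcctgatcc
Snord57, traditional, same locus: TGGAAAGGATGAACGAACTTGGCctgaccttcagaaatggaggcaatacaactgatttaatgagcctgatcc
Snord95, PANDORA-seq, chr11:48803139-48803206, plus strand: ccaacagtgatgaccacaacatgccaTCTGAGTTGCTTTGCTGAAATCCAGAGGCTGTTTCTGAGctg
Snord95, traditional, same locus: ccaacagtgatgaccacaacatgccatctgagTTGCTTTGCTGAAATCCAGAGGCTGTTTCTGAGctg
Snord42a, both methods, chr11:78181299-78181363, minus strand: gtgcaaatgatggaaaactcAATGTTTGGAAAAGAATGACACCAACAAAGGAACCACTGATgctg

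Libraries held 21588335 to 56506344 reads, of which 23696 to 138961 were Snord reads. Reads on miRNA hairpins, to which the study scales its levels, were 283683 to 758477 in PANDORA-seq and 1119719 to 8830574 in traditional libraries. Among the traditional libraries, DCHP 5 stood apart with 4295 Snord reads per 1000000 total reads (RPM), against 678 to 1392 in the other 9. In that library the summed level of 5 epididymal epithelium miRNA markers was 4430 RPM, against 553 to 3307 in the other 9, and that of 2 smooth muscle miRNA markers was 6928 RPM, against 1366 to 6129. Its blood and liver markers, at 56.1 and 1317 RPM, lay within the other 9 (21.0 to 139.9 and 783 to 70134 RPM). The 3 germ line markers were at 462 RPM there, against 87.1 to 319, and all were detected in every group, with 0.902 to 6.46 RPM in PANDORA-seq. All these markers are miRNAs scaled to total reads, so their RPM also rises with the miRNA share of a library. Traditional DCHP 5 held 3409014 miRNA reads among 32351466 reads, and markers per miRNA read were not compared. The part of other cells in the Snord levels was not tested, and in such bulk libraries fewer cells of a type and less RNA per cell cannot be told apart. Traditional control 2 stood apart as well, with 70134 RPM of the liver marker miRNA against 783 to 10716 in the other 9 traditional libraries, the most miRNA reads and the fewest Snord reads per miRNA read. The ratios between methods per miRNA read and in RPM are given without either library, and some further results without DCHP 5 only.

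All 98 Snord genes were matched by reads, 77 had reads in all 19 libraries, and 70 had at least 10 reads in every one. Several Snord116 copies, among which shared reads were divided, summed to only 0.9 of a read each over all libraries. By GENCODE, 82 lay in an intron of a host gene, 13 touched an exon of a host transcript and 3 had no host. The host was protein-coding for 56 of the Snord genes, some of which share a host. The genes were 64 to 238 bases long with a median of 84.

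Per miRNA read, Snord fragments were several-fold higher in PANDORA-seq than in traditional libraries, while as a share of all reads the methods did not separate. Control PANDORA-seq libraries held 111, 107.2, 182 and 96.6 Snord reads per 1000 miRNA reads, and DCHP libraries held 124, 127, 92.2, 85.1 and 166. Traditional control libraries held 20.5, 7.42, 17.8, 15.3 and 19.5, and traditional DCHP libraries held 13.2, 22.9, 13.2, 16.9 and 40.8. Every PANDORA-seq library was above every traditional one, and within each method the exposure groups overlapped. The ratio of means was 7.73 in control sperm (0.124 ± 0.0393 Snord reads per miRNA read, SD, n = 4, against 0.0161 ± 0.00522, n = 5; two-sided exact permutation p = 0.00794, adjusted p = 0.0198 over 5 comparisons), and 0.00794 is the smallest p these groups can give. In DCHP sperm it was 5.56 (0.119 ± 0.0323 against 0.0214 ± 0.0115, n = 5 each; exact permutation p = 0.00794, adjusted p = 0.0198). Without traditional DCHP 5 the DCHP ratio was 7.18, and without traditional control 2 the control ratio was 6.81 (exact permutation p = 0.0286, the smallest for 4 against 4). Control libraries with the same number were taken as pairs, and over those 4 pairs the ratio was 8.15, where an exact sign-flip test cannot give a p below 0.125.

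In RPM, control PANDORA-seq libraries held 1554, 1150, 2418 and 1296, and DCHP libraries held 1481, 1346, 1127, 1041 and 1950. Traditional control libraries held 1034, 1257, 1392, 696 and 1083 RPM, and traditional DCHP libraries held 678, 1187, 877, 1381 and 4295 RPM. The methods overlapped in both exposure groups. The ratio of the mean RPM was 1.47 in control sperm (exact permutation p = 0.0794) and 0.825 in DCHP sperm (p = 0.921 by the same exact permutation test). Without traditional DCHP 5 the DCHP ratio turned to 1.35 (exact permutation p = 0.175), and without traditional control 2 the control ratio was 1.53 (exact permutation p = 0.114). The size of the ratio depends on the denominator: reads of hairpins whose reads are mostly 20 to 24 nt long, a narrower miRNA total, numbered 7906 to 52401 in PANDORA-seq and 1027638 to 8657896 in traditional libraries, and per such read the ratios were 202 in control and 122 in DCHP sperm.

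**Figure D1:**
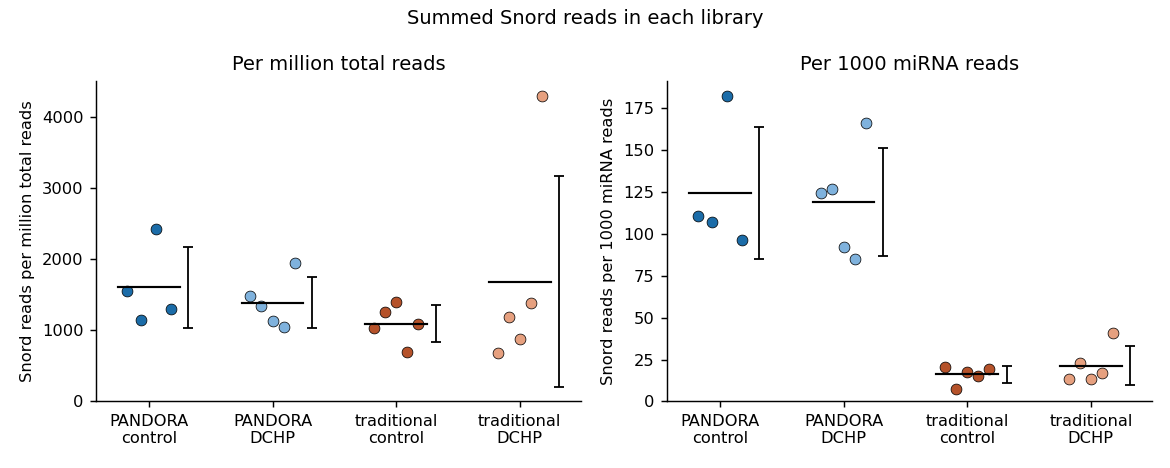
Summed Snord reads, as RPM (left) and per 1000 miRNA reads (right), for the 4 groups of method and exposure; points are libraries, horizontal lines are group means and bars are 1 SD on either side. Per miRNA read the 9 PANDORA-seq libraries (85.1 to 182) sit above the 10 traditional ones (7.42 to 40.8), while in RPM the methods overlap and traditional DCHP 5 is the high point at 4295.

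A few genes held much of the signal. The 8 genes with the highest mean RPM held 46.6% of the Snord RPM in PANDORA-seq and 44.98% in traditional libraries (37.3% for the highest 8 without traditional DCHP 5). Scaled per length, as mean RPM per 100 bases of gene, the order in PANDORA-seq was Snord14c (287), Snord14d (155), Snord83b (86.1), Snord32a (73.6), Snord42a (63.8) and Snord99 (58.0). In traditional libraries the order of mean RPM per 100 bases was Snord83b (245), Snord95 (112.9), Snord85 (86.1), Snord49a (79.7), Snord14c (69.9) and Snord57 (66.8). Without traditional DCHP 5, a setting chosen after seeing the data, it was Snord95 (107.04), Snord85 (72.04), Snord83b (69.8), Snord57 (61.4) and Snord14c (57.8), so the lead of Snord83b and the place of Snord49a came from that library. Neighbours in the orders over all libraries overlapped in their ranges.

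Snord14c and Snord14d lie in introns of Hspa8, and Snord14 RNA is needed to process the precursor of the small-subunit rRNA. Snord14c was at 303, 145, 379 and 241 RPM in PANDORA-seq control and at 243, 271, 145, 141 and 350 RPM in PANDORA-seq DCHP libraries. It was at 47.02, 37.03, 71.9, 40.6 and 53.2 RPM in traditional control and at 35.8, 62.6, 39.4, 59.6 and 154 RPM in traditional DCHP libraries. The methods overlapped in the single traditional library DCHP 5, and exposure groups overlapped within each method. Snord14d ranged from 83.1 to 213 RPM in PANDORA-seq and from 25.5 to 133 RPM in traditional libraries. The genes are identical at 84 of 86 bases, and 33.2% of the Snord14c reads and 57.8% of the Snord14d reads also matched another gene and were divided, so the split between them is uncertain.

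Snord83b lies in an intron of Rpl3, a ribosomal protein gene. It was at 67.4, 64.9, 103 and 73.96 RPM in PANDORA-seq control and at 51.9, 70.2, 36.2, 60.3 and 201 RPM in PANDORA-seq DCHP libraries. It was at 96.2, 37.9, 115.8, 41.6 and 46.4 RPM in traditional control and at 27.2, 63.0, 35.7, 127 and 1716 RPM in traditional DCHP libraries. DCHP 5 was the high library of its group in both methods. PANDORA-seq DCHP 5 was also highest of its method in epididymal epithelium markers (42.8 RPM, against 2.63 to 23.6 in the other 8) and smooth muscle markers (111.6 RPM, against 2.60 to 29.4), and also in germ line markers (6.46 RPM, against 0.902 to 2.83) and blood markers (1.41 RPM, against 0.327 to 1.32). The part of these cells in the Snord83b level was not tested. The other libraries covered 36.2 to 103 RPM in PANDORA-seq and 27.2 to 127 RPM in traditional libraries. In traditional DCHP 5, Snord83b made up 39.96% of the Snord reads, against 3.02% to 9.31% in the other 9 traditional libraries. Without Snord83b that library still held 2579 Snord RPM, against 651 to 1276 in the others.

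Snord95, which touches an exon of Rack1, and Snord42a, in an intron of Rpl23a, guide methylation of the large and the small ribosomal subunit RNA, and they went opposite ways between the methods in RPM. Snord95 was at 31.02, 32.2, 14.2 and 14.3 RPM in PANDORA-seq control and at 21.99, 31.3, 23.2, 23.9 and 33.1 RPM in PANDORA-seq DCHP libraries. In traditional libraries it was at 39.9, 79.1, 101, 45.4 and 87.4 RPM in control and at 49.9, 54.2, 68.6, 129 and 112.3 RPM in DCHP. Every traditional library was above every PANDORA-seq library. Snord42a was at 27.3, 43.3, 82.9 and 41.6 RPM in PANDORA-seq control and at 69.4, 24.7, 32.5, 25.1 and 26.3 RPM in PANDORA-seq DCHP libraries. In traditional libraries it was at 7.74, 6.78, 10.1, 5.06 and 9.82 RPM in control and at 5.83, 8.38, 5.03, 9.27 and 12.3 RPM in DCHP, below every PANDORA-seq library.

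Snord85 varied widely among traditional libraries. It was at 2.63, 2.31, 6.13 and 2.57 RPM in PANDORA-seq control and at 2.22, 2.91, 2.44, 2.93 and 7.14 RPM in PANDORA-seq DCHP libraries. In traditional libraries it was at 42.6, 189, 41.7, 15.8 and 30.02 RPM in control and at 21.2, 54.4, 35.7, 43.2 and 155 RPM in DCHP, all above PANDORA-seq. Among other leading genes, Snord21, a large-subunit guide in an intron of Rpl5, covered 29.4 to 61.5 RPM in PANDORA-seq and 33.7 to 54.8 RPM in traditional libraries. Snord49a, a large-subunit guide, covered 8.48 to 24.03 RPM in PANDORA-seq and 14.1 to 51.02 RPM in traditional libraries other than DCHP 5, which was at 317 RPM. Snord57, a small-subunit guide in an intron of Nop56, covered 6.13 to 19.98 RPM and 20.8 to 83.3 RPM, with no overlap.

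**Figure D2:**
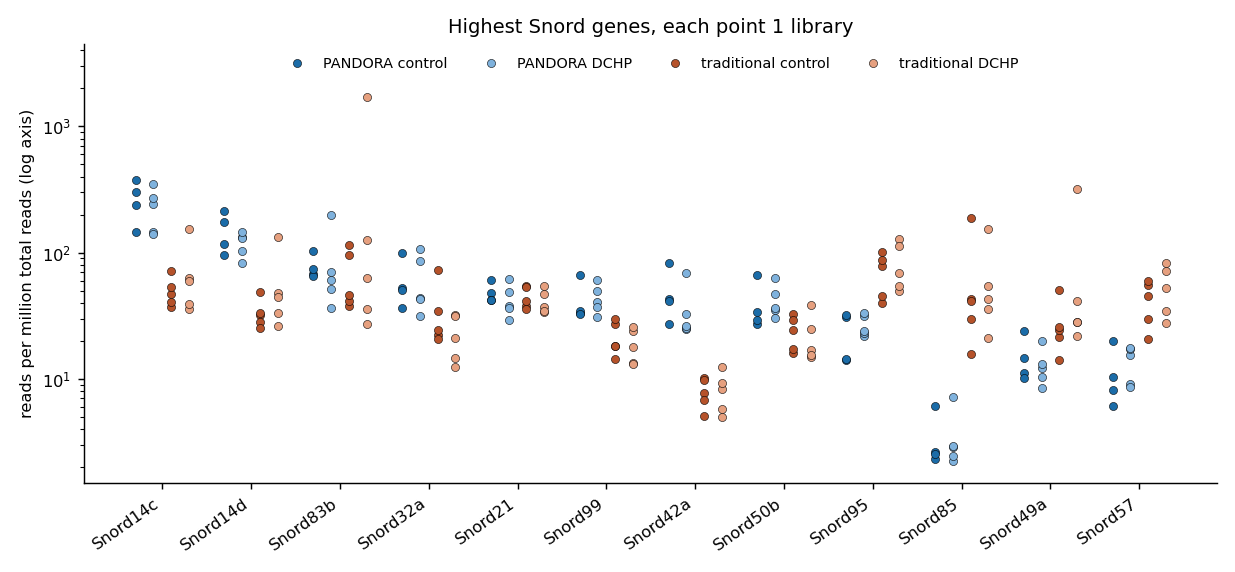
RPM on a log axis of the 12 genes that are among the 8 highest in either method; each point is 1 library, coloured by method and exposure. Snord42a is higher in every PANDORA-seq library, Snord95 and Snord85 in every traditional library, and Snord83b reaches 1716 RPM in traditional DCHP 5.

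Summed over genes, more Snord reads came from the ends of the gene than from its middle, and the share from the 5′ end was higher in traditional libraries. A read that starts within 5 bases of the first annotated base was called a 5′ fragment. One that ends within 5 bases of the last annotated base was called a 3′ fragment, and any other internal. An internal read can thus end beside box D where the annotated gene runs on past it. No read could reach both ends, because reads had at most 45 nt and the shortest gene 64 bases. In PANDORA-seq, 5′ fragments made up 16.5%, 20.6%, 23.7% and 21.5% of the Snord reads in control and 21.4%, 19.05%, 21.8%, 20.3% and 26.5% in DCHP libraries. In traditional libraries they made up 40.8%, 31.4%, 46.6%, 39.4% and 47.4% in control and 48.5%, 34.2%, 45.5%, 45.03% and 76.6% in DCHP. Every traditional library lay above every PANDORA-seq library. PANDORA-seq was 20.5 percentage points lower in control sperm (20.6 ± 3.01 against 41.1 ± 6.47%, SD, n = 4 and 5; exact permutation p = 0.0159, adjusted p = 0.0317 over 12 comparisons) and 28.1 points lower in DCHP sperm (21.8 ± 2.84 against 50.0 ± 15.8%, n = 5 each; exact permutation p = 0.00794, adjusted p = 0.0238). Without DCHP 5 the traditional DCHP mean was 43.3 ± 6.23% (n = 4).

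Fragments of the 3′ end made up 43.8% to 53.3% of the Snord reads in PANDORA-seq and 30.4% to 42.4% in traditional libraries other than DCHP 5, which had 13.9%. The means were 47.7 ± 3.29 against 35.8 ± 4.42% in control sperm (SD, n = 4 and 5; exact permutation p = 0.0159, adjusted p = 0.0317) and 48.3 ± 3.24 against 30.6 ± 10.3% in DCHP sperm (n = 5 each; exact permutation p = 0.00794, adjusted p = 0.0238). This 3′ difference depended on how genes were weighted. With each gene given the same weight it turned to -2.97 points in control (exact permutation p = 0.0159) and -1.55 points in DCHP sperm (p = 0.389, same exact test), whereas the 5′ difference kept its direction. Internal reads made up 31.7 ± 1.82% in PANDORA-seq and 23.1 ± 2.33% in traditional control libraries, and 29.9 ± 3.71 and 19.4 ± 5.65% in DCHP libraries (exact permutation p = 0.00794 and adjusted p = 0.0159 over 4 comparisons, in both). With ends called within 2 bases in place of 5, the internal difference turned to -2.79 and -0.56 points. Over the 4 control pairs, the differences were -18.9 points for 5′, 10.7 for 3′ and 8.19 for internal reads, each with an exact sign-flip p = 0.125, the smallest that 4 pairs allow.

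**Figure D3:**
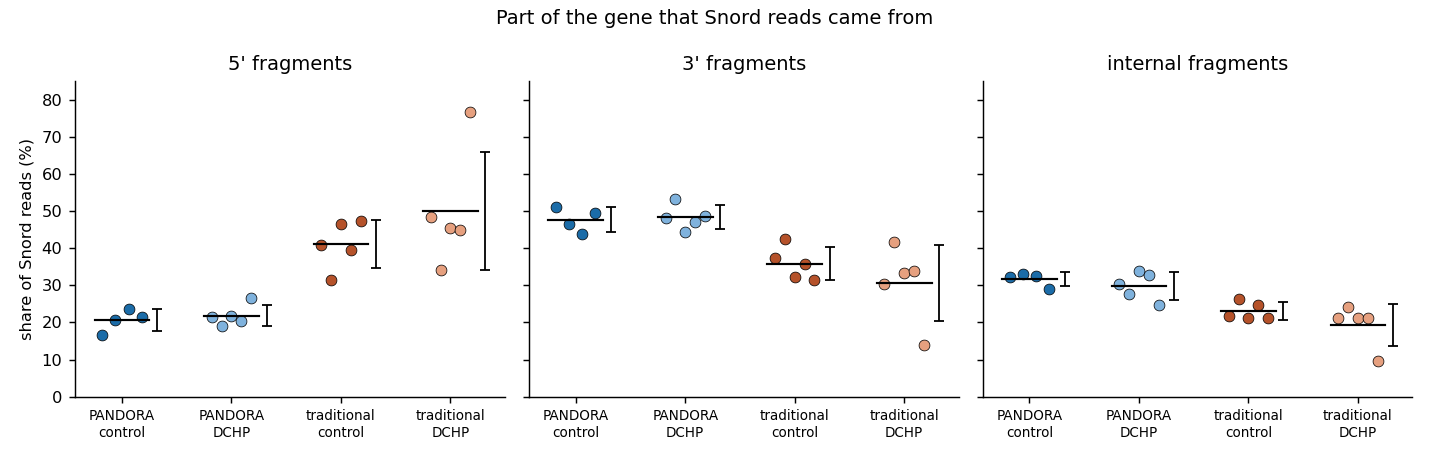
Share of Snord reads, in percent per library, that were 5′, 3′ or internal fragments, by method and exposure; points are libraries, horizontal lines are group means and bars are 1 SD on either side. The 5′ share is 16.5% to 26.5% in PANDORA-seq and 31.4% to 76.6% in traditional libraries, with traditional DCHP 5 at the top.

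Per gene, the 5′ share of the 70 Snord genes with at least 10 reads in every library was higher on average in traditional libraries for 56 (80%), as it was for 217 of 313 genes with such depth (69.3%). In 20 of the 70 (28.6%) all traditional libraries lay above all PANDORA-seq libraries, where 23.6% of the 313 did, which include Snord and leave out miRNA, rRNA and tRNA genes, and in 1 (Snord68) all PANDORA-seq libraries lay above, where 1.28% of those 313 did. The median difference was 8.97 points for Snord and 0.858 points for the 313 genes. Snord82 went from 18.99% of its reads in PANDORA-seq to 81.6% in traditional libraries, Snord123 from 38.2% to 92.6%, Snord11 from 10.3% to 64.4% and Snord72 from 22.5% to 80.99%. Snord14c went from 9.88 ± 7.07% (SD, n = 9) to 43.2 ± 15.6% (n = 10), and Snord57 from 59.6 ± 11.7% to 83.3 ± 3.71%. For the 3′ share, all traditional libraries lay above in 6 Snord genes (18.8% of the 313) and all PANDORA-seq libraries in 7 (4.79% of the 313), and the median Snord difference was 0.

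Some named genes were read mainly from one end in both methods. Of the Snord95 reads, 99.3 ± 0.22% were 3′ fragments in PANDORA-seq and 99.2 ± 0.67% in traditional libraries (SD, n = 9 and 10), and Snord42a had 98.0 ± 0.72% and 94.9 ± 2.80%. Snord83b was read from the other end, with 77.5 ± 6.04% and 94.5 ± 3.33% of its reads at the 5′ end. Its 33 nt fragment alone made up 71.2% of the gene's reads in PANDORA-seq and 69.6% in traditional libraries (58.2% without DCHP 5), and starts at base 4 of the annotated gene. Snord35a, a large-subunit guide in an intron of Rpl13a, had no 3′ fragments by this definition and 20.6 ± 3.14% and 41.2 ± 13.8% 5′ fragments. By contrast, 27 of the 70 genes in PANDORA-seq and 18 in traditional libraries had mostly internal reads, among them Snord69, Snord70 and Snord90, with no read at either end by this definition in PANDORA-seq. Some internal reads ended beside box D. The leading Snord21 fragment, called internal, ended at base 88 of 94 in both methods, 1 base after CTGA. Of PANDORA-seq reads that reached CTGA, 47.7% for Snord69, 93.2% for Snord111 and 0.0966% for Snord22 ended at that distance. How many internal reads did so was not counted. Over the 70 genes, the most-read fragment started at the same base in both methods in 33 and ended at the same base in 34.

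Compared within each library with the 42 H/ACA box snoRNA genes (Snora), which guide pseudouridylation, Snord reads had more 5′ fragments and were longer. In PANDORA-seq the 5′ share was 21.3% for Snord and 12.7% for Snora, higher in 9 of 9 libraries (exact sign-flip p = 0.00391, adjusted p = 0.00521 over 12 comparisons), and in traditional libraries 45.5% and 38.3%, higher in 9 of 10 (exact sign-flip p = 0.0234, adjusted p = 0.0281). With ends called within 2 bases the PANDORA-seq difference fell to 1.89 points (exact sign-flip p = 0.0820). The traditional difference was lost with only reads that match 1 gene, 0.16 points, and turned to -5.70 points with ends called within 2 bases. Mean length was 33.4 nt for Snord and 31.1 nt for Snora in PANDORA-seq, longer in 9 of 9 libraries, and 29.5 and 24.99 nt in traditional libraries, longer in 10 of 10 (exact sign-flip adjusted p = 0.00521 in both). The 3′ shares were 48.0% against 41.4% (exact sign-flip adjusted p = 0.141) and 33.2% against 29.3% (exact sign-flip adjusted p = 0.134). The 3′ difference passed without PANDORA-seq control 3 (9.21 points, exact sign-flip p = 0.0469) and without traditional DCHP 5 (5.89 points, exact sign-flip p = 0.00391), but turned to -1.83 and -7.84 points with genes weighted equally. Reads of the 1383 small nuclear RNA genes, many of them near copies that share reads, were 0.151% and 0.602% 5′ fragments in PANDORA-seq and traditional libraries.

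The ends of many Snord fragments lay within a few bases of boxes C and D, which the choice of reads and the annotated gene ends partly set. The letters TGATGA, the usual core of box C, occur in the first 25 bases of 70 of the 98 Snord genes (71.4%) and of 0 of the 42 Snora genes, and CTGA, box D, in the last 25 bases of 97 Snord genes (99.0%) and of 6 Snora genes (14.3%), read on the sense strand only; a match is a description and not a shown site. Among 5′ fragments of at least 18 nt in genes with TGATGA, 82.5 ± 4.0% in PANDORA-seq and 90.5 ± 1.9% in traditional libraries (SD, n = 9 and 10) started 5 or 6 bases before it; these fragments were taken only where they start within 5 bases of the annotated first base, which largely sets that distance. At the other end, reads that reached CTGA were taken, including a few that ended just before or within it. Matches lay within the annotated gene, which in the genes shown above ends a few bases after CTGA. A read of these genes could thus not end far past box D, and only the split between the possible distances is described. Of these, 38.2% to 50.8% in PANDORA-seq and 62.0% to 73.3% in traditional libraries ended 1 base after CTGA. The difference was -22.8 points in control sperm (44.7 ± 5.61 against 67.5 ± 4.88%, n = 4 and 5) and -25.7 points in DCHP sperm (43.7 ± 4.86 against 69.4 ± 3.94%, n = 5 each), with an exact permutation p = 0.00794 and an adjusted p = 0.0159 over 8 comparisons in both. Ends 3 or 4 bases after CTGA made up 39.4% to 53.05% in PANDORA-seq and 13.03% to 26.1% in traditional libraries.

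The difference was smaller with each gene given the same weight. As the mean over the 39 genes with at least 20 such reads in every library, 59.7% to 61.2% of reads ended 1 base after CTGA in PANDORA-seq and 62.4% to 65.4% in traditional libraries. The gene means differed by -3.63 points in control and -3.35 points in DCHP sperm (exact permutation p = 0.00794 in both). Genes differed in this distance: Snord95 ended 1 base after CTGA in 91.7 ± 2.3% of reads in PANDORA-seq and 92.3 ± 1.2% in traditional libraries (SD, n = 9 and 10), while Snord14c did so in 1.87 ± 0.79% and 1.94 ± 1.30%, and Snord66 in 50.1 ± 3.0% and 56.6 ± 6.3%. Snord14c reads, which are many in PANDORA-seq, ran on to the end of the annotated gene, where matching stops, as its sequence above shows. In 34 of the 39 genes the libraries of the methods overlapped, and the 5 that did not were Snord21, Snord33, Snord50a, Snord85 and Snord104. Snord104 stood furthest apart, with 20.6 ± 6.2% in PANDORA-seq and 70.9 ± 17.2% in traditional libraries; these 5 were singled out after their values were seen.

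**Figure D4:**
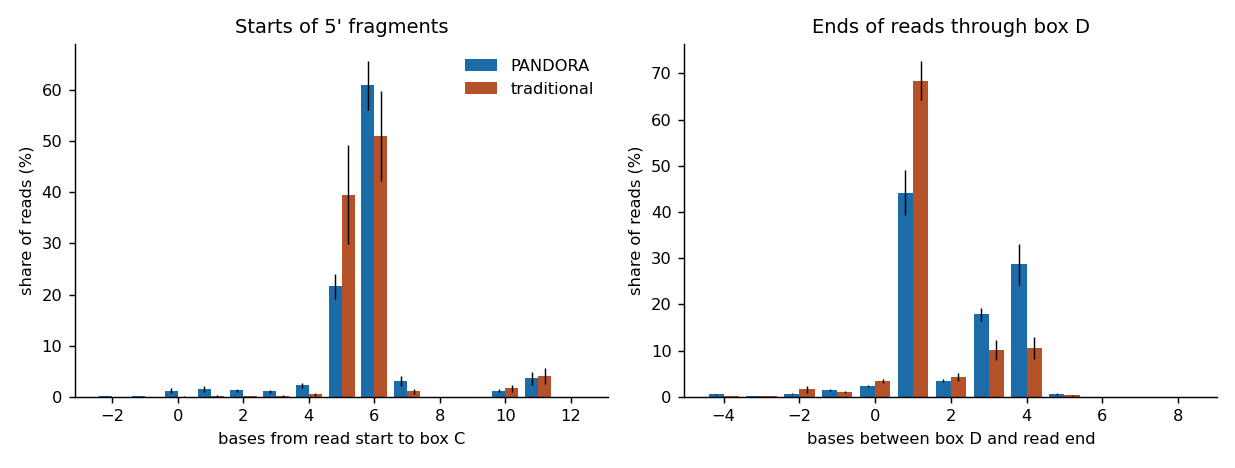
Percent of reads at each distance in bases, for starts of 5′ fragments before TGATGA and for 3′ ends after CTGA, as the mean over the libraries of each method with SD bars. Starts sit 5 or 6 bases before TGATGA in both methods, and 3′ ends sit at 1 base (44.1% in PANDORA-seq and 68.4% in traditional libraries) or at 3 and 4 bases.

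Snord fragments were longer in PANDORA-seq. Mean length was 33.9, 32.8, 31.4 and 33.3 nt in PANDORA-seq control and 33.9, 35.4, 31.1, 33.3 and 35.1 nt in PANDORA-seq DCHP libraries. It was 30.6, 29.6, 29.1, 30.01 and 29.8 nt in traditional control and 29.02, 30.3, 28.3, 29.8 and 28.5 nt in traditional DCHP libraries. The methods did not overlap. The difference was 3.03 nt in control sperm (32.9 ± 1.08 against 29.8 ± 0.56 nt, SD, n = 4 and 5) and 4.58 nt in DCHP sperm (33.8 ± 1.72 against 29.2 ± 0.83 nt, n = 5 each; exact permutation p = 0.00794 and adjusted p = 0.0238 in both). Over the 4 control pairs it was 3.02 nt, with an exact sign-flip p = 0.125. All PANDORA-seq libraries lay above all traditional ones in 30 of 70 Snord genes (42.9%) and in 49.5% of the same 313 genes, which leave out miRNA, rRNA and tRNA, and traditional libraries lay above in 3 Snord genes (Snord68 and both Snord80 models) and in 1.92% of the 313.

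Reads of 35 to 45 nt made up 38.5% to 60.9% of Snord reads in PANDORA-seq and 9.57% to 31.05% in traditional libraries, and reads of 25 to 34 nt made up 25.9% to 35.3% and 42.2% to 60.6%. The most common length was 39 nt in PANDORA-seq (9.0 ± 1.5%, SD, n = 9), that of the Snord14c and Snord14d 3′ fragments, and led in 8 of 9 libraries; in PANDORA-seq DCHP 5 the leading length was 33 nt (11.2%). In traditional libraries it was 33 nt (11.4 ± 7.6%, n = 10), that of the Snord83b and Snord95 fragments, with 31.9% in traditional DCHP 5 and 5.95% to 13.2% in the others, and it led in 8 of 10 libraries. The length of the Snord85 fragment, 27 nt, stood out in traditional control 2 alone, with 17.1% against 3.85% to 7.03% in the other 9 traditional libraries and at most 1.77% in PANDORA-seq; that library also had the highest Snord85 level. The files end at 45 nt, so longer pieces were not seen. Reads of 15 to 17 nt matched the antisense strand more often than the sense strand in 7 of 9 PANDORA-seq libraries (447 to 2428 antisense and 375 to 2233 sense reads per library) and in 0 of 10 traditional libraries (304 to 1641 and 1743 to 18860), while longer reads had at most 8 antisense matches in a length class and library. The shortest sense matches thus cannot be told from background in those 7 libraries, and over PANDORA-seq they were 0.835% to 3.14% of the Snord reads.

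**Figure D5:**
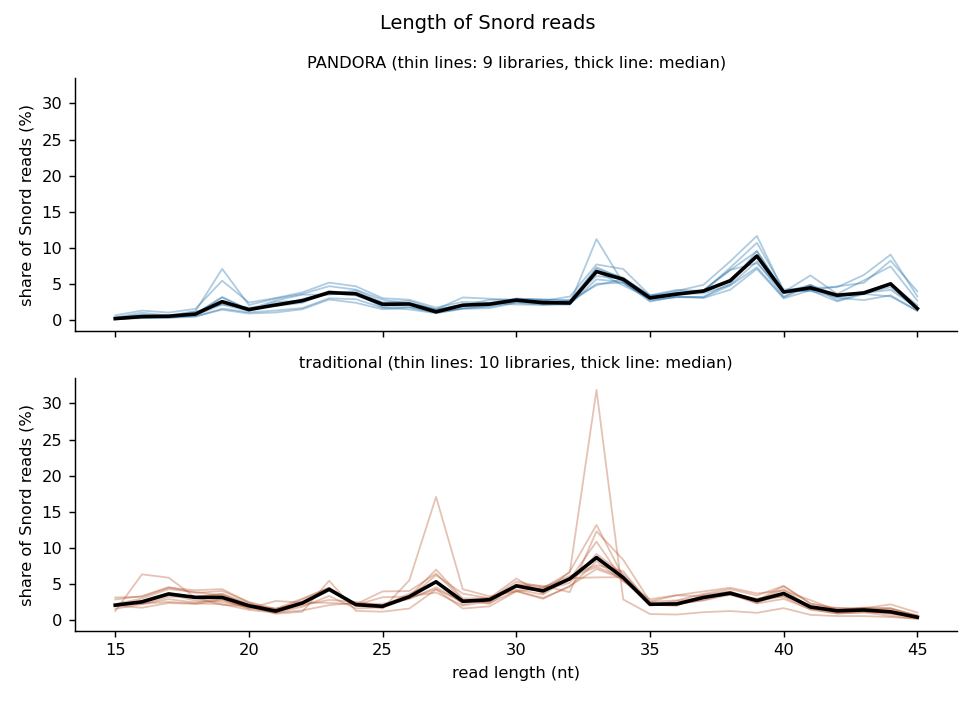
Percent of Snord reads at each length from 15 to 45 nt, for the 9 PANDORA-seq libraries (top) and the 10 traditional libraries (bottom); thin lines are libraries and the thick line is their median. The median peaks at 39 nt in PANDORA-seq and at 33 nt in traditional libraries, where DCHP 5 reaches 31.9%.

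Gene by gene, with the miRNA total as library size, most Snord genes were higher in PANDORA-seq. Called genes had an adjusted p below 0.1 by the quasi-likelihood test of edgeR and a fold change above 2. In control sperm 81.7% of the 1292 genes tested were called, 48.5% higher and 33.2% lower in PANDORA-seq, and of the 77 Snord genes tested 68 were higher and 1 was lower. In DCHP sperm 80.5% of 1434 genes were called, 43.7% higher and 36.8% lower, and of 81 Snord genes 62 were higher and 4 were lower. The median log2 fold change was 2.69 for Snord and 0.89 for all genes in control, and 2.25 and 0.66 in DCHP sperm. Of the 4 lower genes in DCHP sperm 3 passed the filter on low counts through traditional libraries alone. With the total reads as library size the Snord counts were 22 higher and 13 lower in control (median 0.20, all genes -1.501), and 23 higher and 27 lower in DCHP sperm (median -0.37, all genes -1.88). Of all genes tested, 217 were higher and 714 lower of 1292 in control, and 200 and 903 of 1434 in DCHP sperm. With the summed Snord reads as library size, a setting chosen after seeing the data, the Snord counts were 19 and 23 in control and 20 and 26 in DCHP sperm. All genes tested then gave 143 higher and 794 lower of 1292 in control, and 182 and 922 of 1434 in DCHP sperm. Scaling to the sum of the class by itself places some of its genes higher and others lower.

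Among called genes whose libraries did not overlap between the methods, the 5 with the highest fold change in control sperm were Snord14e (log2 fold change 5.24 ± 0.56, SE), Snord35a (5.02 ± 0.55), Snord16a (5.01 ± 0.55), Snord42a (4.98 ± 0.55) and Snord110 (4.97 ± 0.55), with edgeR adjusted p-values from 3.3e-19 to 5.1e-18. In DCHP sperm they were Snord35a (5.50 ± 0.55), Snord110 (5.46 ± 0.46), Snord14a (5.397 ± 0.47), Snord65 (5.10 ± 0.58) and Snord42a (4.70 ± 0.40). Snord16a in Rpl4, Snord110 in Nop56, Snord42a and Snord65 guide small-subunit methylation. Snord35a was at 18.8, 12.8, 20.1 and 12.6 RPM in PANDORA-seq control and at 4.05, 1.25, 2.26, 2.38 and 1.36 RPM in traditional control libraries. In DCHP libraries it was at 14.2, 13.9, 11.1, 8.07 and 15.5 RPM in PANDORA-seq and at 1.11, 3.06, 1.47, 0.941 and 0.835 RPM in traditional libraries. The methods did not overlap, so Snord35a was higher in PANDORA-seq on the scale of all reads as well. Snord110 was at 8.90 to 23.2 RPM in PANDORA-seq and at 1.05 to 3.92 RPM in traditional libraries, again with no overlap.

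Lower in PANDORA-seq was Snord85 in control (log2 fold change -1.35 ± 0.50, SE; edgeR adjusted p = 0.011) and in DCHP sperm (-1.41 ± 0.44; edgeR adjusted p = 0.0083). The Snord85 call was lost with exact matches only (-0.18 and -0.23), and its direction turned to 3.31 and 2.85 with a miRNA total of only the hairpins whose reads are mostly 20 to 24 nt long. In DCHP sperm, Snord107 (-3.50 ± 0.85), Snord64 (-2.96 ± 0.91) and Snord45b (-1.63 ± 0.80) had at least 10 reads in no PANDORA-seq library of the comparison and in 4 traditional ones, so that the filter itself selected them for a lower PANDORA-seq value, and the fold changes are a description. Snord107 was at 0, 0, 0.0463 and 0 RPM in PANDORA-seq control, at 0.0211, 0, 0, 0 and 0.0227 RPM in PANDORA-seq DCHP, and at 0.117 to 2.35 RPM in traditional libraries. With the narrower miRNA total the log2 fold changes were 0.59 for Snord107, 1.18 for Snord64 and 2.68 for Snord45b, and with exact matches only that of Snord45b was -0.028. The Snord45b value no longer passed the threshold without PANDORA-seq DCHP 3, 4 or 5 (edgeR adjusted p = 0.126, 0.130 and 0.109).

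Described by role and host, with the miRNA total as library size, all 7 processing guides (Snord13, Snord14a, Snord14c, Snord14d, Snord14e, Snord22 and Snord118), which act in cutting or maturing the rRNA precursor, were called higher in PANDORA-seq in both exposure groups, where 48.5% and 43.7% of all genes were. Most of the Snord class was called higher as well, 68 of 77 genes tested in control and 62 of 81 in DCHP sperm. The median log2 fold changes of the 7 guides were 4.480 and 4.401, against 2.69 and 2.25 for Snord and 0.89 and 0.66 for all genes. On the scale of all reads Snord118 was at 33.3 ± 7.73 RPM in PANDORA-seq DCHP and at 41.5 ± 29.1 RPM in traditional DCHP libraries (SD, n = 5 each). In control libraries the order was the reverse, with 47.8 ± 29.6 RPM in PANDORA-seq and 26.3 ± 15.9 RPM in traditional libraries. The summed level of the 7 guides was 455 ± 151 RPM in PANDORA-seq (SD, n = 9), 30.7% of the Snord RPM, and 150 ± 88.2 RPM in traditional libraries (n = 10), 10.8%. Snord14c and Snord14d, nearly identical, held most of it, and the other 5 summed to 75.9 ± 25.7 RPM in PANDORA-seq and 44.5 ± 28.97 RPM in traditional libraries, which overlapped. The 4 genes of the Gas5 introns (Snord47, Snord78 and both Snord80 models) were all called higher in control sperm and 3 of 4 in DCHP sperm, and the 4 of Rpl13a (Snord32a, Snord33, Snord34 and Snord35a) were called higher in both. In Snhg1, Snord22 was the only member, with log2 fold changes of 3.27 and 3.14. The 19 genes of the imprinted Snrpn to Ube3a region, where neuron-rich snoRNA clusters lie, were near absent: their summed level was 0 to 0.0765 RPM in PANDORA-seq and 0.288 to 4.82 RPM in traditional libraries, and the 2 tested in DCHP sperm, Snord64 and Snord107, passed the filter through traditional libraries alone. No gene of the Dlk1 to Dio3 region was among the members.

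Exposure to DCHP gave no called Snord gene in either method. In PANDORA-seq 0% of 842 genes tested were called, and the 75 Snord genes had log2 fold changes, DCHP against control, from -0.83 to 0.64, of which 2 had an unadjusted p below 0.05 by edgeR and 0 were called by DESeq2. Those 2 are the overlapping Snord80 models in Gas5 (-0.83 ± 0.33, SE), which share their reads. Together they were at 94.1, 66.8, 141 and 57.9 RPM in control and at 68.2, 39.8, 50.6, 29.2 and 41.9 RPM in DCHP libraries. The groups overlapped in DCHP 1, and the edgeR adjusted p was 0.9999. In traditional libraries the same models had log2 fold changes of -0.07 and -0.06.

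In traditional libraries 0% of 1586 genes were called, and the 81 Snord genes had log2 fold changes from -0.82 to 1.91. Of these, 6 had an unadjusted p below 0.05 by edgeR, all higher in DCHP: Snord83b (1.91 ± 0.69), Snord47 (1.72 ± 0.59), Snord107 (1.40 ± 0.63), Snord67 (1.36 ± 0.53), Snord49a (1.30 ± 0.52) and Snord71 (1.17 ± 0.53), with edgeR adjusted p-values of 0.929 to 0.930. For the 81 Snord genes the median log2 fold change was 0.21, against 0.30 for all 1586 genes tested. With no filter on low counts, Snord83b and Snord47 were called (edgeR adjusted p = 0.016 and 0.049). Without traditional DCHP 5 the values were -0.16 for Snord83b, 0.18 for Snord47 and 0.26 for Snord49a, so these values turned on that library. DESeq2 called 0 Snord genes. In reads per miRNA read, the exposure groups were apart for no Snord gene tested in either method. How many of all genes tested had groups apart was not counted, so this number says little about Snord. The interaction of method and exposure was called for 0% of 1632 genes, and 3 of 81 Snord genes had an unadjusted p below 0.05 by edgeR. The share of all genes tested with such an unadjusted p was not counted, for exposure in either method or for the interaction.

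The class as a whole did not move with exposure beyond the spread between libraries. Per miRNA read, the DCHP mean was 0.956 times the control mean in PANDORA-seq (exact permutation p = 0.802) and 1.33 times in traditional libraries (p = 0.452, same exact test), and the difference between methods was -0.48 on the log2 scale (permutation p = 0.399). In RPM the ratios were 0.866 (exact permutation p = 0.516) and 1.54 (p = 0.651, same exact test), and without traditional DCHP 5 the latter was 0.944 and that per miRNA read 1.03. The 5′ share differed by 1.22 points in PANDORA-seq and by 8.84 points in traditional libraries, the 3′ share by 0.60 and -5.19 points, and mean length by 0.90 and -0.65 nt, with exact permutation adjusted p-values of 0.327 or more. Without traditional DCHP 5 the traditional differences were 2.19 points for the 5′ share and -0.998 points for the 3′ share. The internal share differed by -1.82 points in PANDORA-seq and by -3.65 points in traditional libraries (exact permutation adjusted p = 0.405 and 0.190), and without traditional DCHP 2 the latter was -4.81 points with an unadjusted exact permutation p = 0.0238. With 4 or 5 libraries per group and SDs of 2.8 to 15.8 points in the 5′ share, small changes could not be told from none.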

How the data were processed

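For each of 19 libraries the authors deposited counts: every distinct cleaned sequence of 15 to 45 nt and its number of reads, with no normalization and no molecular identifiers. The labels name mm10. The paper analysed reads with SPORTS1.1 with 1 mismatch and scaled levels to total miRNA. The labels give T4PNK before AlkB, and the methods give the reverse order. Here sequences were matched without gaps to the exons of small RNA genes of GENCODE vM21 (GRCm38) and to RefSeq tRNAs, sense strand, at most 1 mismatch. The reference had 10 of 408 nuclear tRNA loci and not the 28S or 45S rRNA, so reads shared with those were not removed. Levels and shares were compared by exact permutation tests, two-sided and adjusted by Benjamini-Hochberg. Genes were compared with edgeR 4.0.16 (quasi-likelihood) or DESeq2 1.42.0, on genes with at least 10 reads in at least 4 libraries. The library size was the miRNA total in edgeR, while DESeq2 used its own size factors from the gene counts. Divided reads were rounded to whole counts, and the edgeR SE was the log2 fold change over the root of F. Tested on simulated counts with 200 genes changed 4-fold, edgeR recovered 82% in the control method comparison and 77% in the traditional exposure comparison. Named genes were the 8 highest by mean RPM in each method and the 5 largest called changes in each direction per comparison. Members, lists and tests were chosen with earlier results of these data known. Within groups, every one of 36 library pairs differed beyond sampling noise (chi-square at least 13.3 per degree of freedom). Replicate numbers paired control libraries between methods (r of deviations 0.209 to 0.446 in 4 of 4 pairs), a relation seen in the counts and not stated in the labels.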

Additional observations from a re-analysis of the deposited data

Results flagged for a closer look

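Of 112 groups of 4 or 5 values tested, 24 held a library whose gap to its nearest neighbour was large against the group's range; chance flags about 1 in 20 groups, and levels of genes in the same library are not independent. Traditional DCHP 5 stood apart in the Snord level (4295 RPM), in the internal share (9.56%), and in Snord83b (1716 RPM), Snord49a (317 RPM), Snord85 (155 RPM), Snord14c (154 RPM), Snord14d (133 RPM) and Snord107 (2.35 RPM). PANDORA-seq DCHP 5 stood apart in Snord83b (201 RPM), Snord65 (47.4 RPM) and Snord85 (7.14 RPM). PANDORA-seq control 3 did so in Snord reads per 1000 miRNA reads (182), and in Snord99 (67.1 RPM), Snord50b (66.8 RPM), Snord85 (6.13 RPM), Snord107 (0.0463 RPM) and Snord64 (0.0231 RPM), the last pair at or near 1 read. Traditional DCHP 2 stood apart in Snord16a (21.2 RPM), Snord14e (8.44 RPM) and Snord35a (3.06 RPM), and traditional control 2 in Snord85 (189 RPM) and Snord45b (4.03 RPM). Snord32a in traditional control 1 (73.5 RPM) and Snord42a in PANDORA-seq DCHP 1 (69.4 RPM) complete the count. Every Snord50b read also matched another gene of the reference and was divided; Snord50a, counted apart, is identical at 71 of 72 bases.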

How the results depend on the processing

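Of 1158 recomputed values of 67 results, 1082 kept their direction and their side of the threshold; the cause of the others was not tested unless the construction shows it. With total reads as denominator the ratio of PANDORA-seq to traditional libraries was 1.47 in control and 0.825 in DCHP sperm, and with total reads of 18 to 45 nt, chosen after seeing the data, 1.52 and 0.876. With the replicate block, which pairs libraries of the same number and for 4 or 5 pairs cannot give a p below 0.125 or 0.0625, the ratios were 8.15 and 5.56, the 5′ differences -18.9 and -28.1 points, the 3′ differences 10.7 and 17.7, the internal differences 8.19 and 10.5, and the lengths 3.02 and 4.58 nt; the block left 68 Snord genes called in each exposure group and none for exposure. Of all genes, the block called 917 of 1292 in control and 1163 of 1434 in DCHP sperm between the methods. Only control libraries between methods met the rule for pairs: r was over 0.1 in 4 of 5 DCHP pairs (-0.0409 to 0.409, 4 correlating best with their own number) and in 1 of 4 and 1 of 5 pairs of control and DCHP. With genes weighted equally the 3′ differences were -2.97 and -1.55 points. With ends called within 2 bases the internal differences were -2.79 and -0.56.

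For DCHP against control in PANDORA-seq, where no result passed a test, the level was 1.03 with exact matches, the internal difference 0.11 within 2 bases, and the 3′ difference -1.31 within 10 bases, -0.55 within 2, -0.0074 for genes with 10 bases on either side and -0.45 for reads of 1 gene. Against Snora, the 5′ difference was 1.89 in PANDORA-seq within 2 bases, and in traditional libraries -5.70 within 2 bases, 5.86 with exact matches, 0.16 for reads of 1 gene and 3.93 at 18 to 45 nt. The 3′ difference against Snora was 17.8 and 13.3 within 10 bases, -6.80 and -11.9 within 2 bases, -1.83 and -7.84 with genes weighted equally, and 9.33 for reads of 1 gene in traditional libraries. Against small nuclear RNA, the length difference in traditional libraries was -0.98 nt with genes weighted equally. Snord genes called in control sperm numbered 35 with total reads and 42 with summed Snord reads as library size, of 77 tested. Of all 1292 genes tested, 931 and 937 were called in these settings. For exposure in traditional libraries, 2 Snord genes were called with no filter. TMM gave 45 Snord genes higher and 5 lower in control and 42 and 9 in DCHP sperm, and DESeq2 44 and 5, and 42 and 8. Of all genes, TMM gave 403 higher and 575 lower of 1292 in control and 410 and 658 of 1434 in DCHP sperm. DESeq2 gave 399 and 559, and 426 and 647, of all genes. Both scale libraries from the gene counts and not by the miRNA total. With the narrower miRNA total all 77 and 79 called Snord genes were higher. So were nearly all called genes of any class, with 1107 higher and 23 lower of 1292 in control, and 1186 and 6 of 1434 in DCHP sperm. Log2 fold changes with this total were 0.59 for Snord107, 3.31 and 2.85 for Snord85, 2.68 for Snord45b, 1.18 for Snord64 and -0.32 for Snord83b (exposure, PANDORA-seq), the last -0.39 with the block.

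Leaving out 1 library moved the level for exposure in PANDORA-seq between 0.862 and 1.13, its 5′ difference between -0.14 and 2.26 points, its 3′ difference between -0.71 and 1.77, its box D ends between -2.77 and 1.09, and their gene means between -0.17 and 0.19. In traditional libraries the gene means moved between -0.53 and 0.095 and the internal difference between -4.81 and -1.19, where it passed the test without traditional DCHP 2. The 3′ difference against Snora moved between 4.91 and 9.21 in PANDORA-seq and between 3.04 and 5.89 in traditional libraries, and passed without PANDORA-seq control 3 and without traditional DCHP 5. Snord83b for exposure moved between -0.36 and 0.45 in PANDORA-seq and between -0.16 and 2.22 in traditional libraries, the low value without DCHP 5. Called Snord genes stayed within 66 to 71 in control and 61 to 69 in DCHP sperm. Of the 98 genes, 21 lacked reads in some library, and the part of depth in this was not tested.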
